A study of Homo sapiens with 12 samples.

Results

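The genes described are 10 tubulin genes: the beta-tubulins TUBB2A, TUBB2B, TUBB3, TUBB6 and TUBB, the alpha-tubulins TUBA1A, TUBA1B, TUBA1C and TUBA4A, and the gamma-tubulin TUBG1. They were chosen by name, and every probe that the array annotation pairs with 1 of these symbols was taken. This gave 18 of the 47322 probes on the array, and 10 of the 20046 genes with a probe. The choice drew on earlier results of these data: TUBB2B was singled out for its separation of the cell lines and TUBB3 for its difference between siPRKDC and siNeg in TC32. Values from those contrasts are therefore given as descriptions, with no test, and tests of the 10 genes are kept to siPRKDC against siNeg in HCT116.

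Microtubules are polymers of alpha- and beta-tubulin heterodimers, and each subunit of the dimer is encoded by several genes whose protein products, the isotypes, differ mainly in their C-terminal tails. Several of these genes are best known from particular tissues: TUBB3 and TUBB2B are abundant in neurons, and TUBB3 is widely used as a neuronal marker, although many carcinoma lines express it too. Gamma-tubulin is not built into the polymer wall but sits in ring complexes that start new microtubules.

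The study measured mRNA by microarray in 12 samples, 3 in each of 4 groups. TC32 is a human Ewing sarcoma cell line and HCT116 a human colorectal carcinoma cell line. Each line was transfected for 48 h with 20 nM siPRKDC, which targets PRKDC (catalytic subunit of the DNA-dependent protein kinase), or with the same dose of a control siRNA (siNeg), and all 4 groups were thus transfected. TC32 was grown in RPMI-1640 and HCT116 in DMEM, both with fetal bovine serum, so line and medium cannot be told apart. Each tumour type is represented by 1 line, and the labels do not say whether the 3 samples of a group were separate cultures; p-values then reflect only how far these samples varied, and that variation may be technical.

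TUBB2A and TUBB2B lie close together on chromosome 6, yet their values in these lines were unlike each other, and TUBB3 has more than 1 annotated start; the bases just before their starts are shown for that reason. The windows are RefSeq sequences on GRCh38.p14, 150 bases long and ending at the base before the annotated start, written 5′ to 3′ in the direction of the gene. TUBB2A (chr6:3157545-3157694) and TUBB2B (chr6:3227654-3227803) are on the minus strand, and TUBB3 start 1 (chr16:89921775-89921924) and TUBB3 start 2 (chr16:89923192-89923341) on the plus strand. Capitals mark matches, on either strand, to TATAA, to the motif CGTCA or to the motif CCAAT.
TUBB2A: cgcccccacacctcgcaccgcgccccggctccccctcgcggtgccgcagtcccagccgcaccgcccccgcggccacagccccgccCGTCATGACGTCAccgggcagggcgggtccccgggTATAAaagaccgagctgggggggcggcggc
TUBB2B: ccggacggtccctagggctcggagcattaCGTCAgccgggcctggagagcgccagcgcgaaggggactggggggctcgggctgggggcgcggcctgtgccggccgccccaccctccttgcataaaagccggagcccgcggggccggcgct
TUBB3 start 1: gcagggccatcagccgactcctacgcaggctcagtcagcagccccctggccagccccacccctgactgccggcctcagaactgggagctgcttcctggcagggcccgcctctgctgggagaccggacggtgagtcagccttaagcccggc
TUBB3 start 2: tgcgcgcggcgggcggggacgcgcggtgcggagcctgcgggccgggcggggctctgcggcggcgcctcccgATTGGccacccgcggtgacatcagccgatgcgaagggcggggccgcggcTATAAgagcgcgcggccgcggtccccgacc
The 3 motifs were chosen after these sequences had been read. The TUBB2A window holds TATAA 1 time and CGTCA 3 times, with overlaps among the CGTCA matches of both strands. The TUBB2B window holds CGTCA 1 time. TUBB3 start 2 holds TATAA 1 time and CCAAT 1 time, and TUBB3 start 1 holds none of the motifs. Over all 15 windows of the 10 genes, TATAA occurred in 4, CGTCA in 2 and CCAAT in 5, while the shares of 35114 RefSeq windows of the same length were 12.1%, 15.4% and 23.5%. A match describes the letters only.

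Levels below are normalized log2 intensities of 1 probe, and a difference of log2 values is between group means of the same probe. Levels of different probes were not compared, because probes differ in brightness. A probe was detected on an array where its detection p was below 0.05, and the lowest detected signal lay between 4.35 and 4.44 on the log2 scale. Between 15396 and 18153 probes were detected per array, with 15396 to 16216 on the TC32 siPRKDC arrays against 16324 to 16603 on the TC32 siNeg arrays. PRKDC, the targeted gene, fell by 1.41 on the log2 scale in TC32 and fell by 2.66 in HCT116 by its brightest probe (limma, adjusted p = 3.80e-08 and 4.87e-11). Its 2 other kept probes gave -0.86 and -0.92 in TC32 and -0.78 and -0.73 in HCT116, so no order of the lines is read from the brightest probe. All 8 measured Ewing sarcoma line markers were higher in TC32 than in HCT116 under siNeg, and all 7 measured colon epithelial line markers were higher in HCT116. The summed Ewing sarcoma marker signal was 5058 to 5469 on the TC32 siNeg arrays and 5815 to 7037 on the TC32 siPRKDC arrays. By their brightest probes, 4 of the 10 tubulin genes lay wholly higher with siPRKDC in TC32, while 6 overlapped. Of all genes, 24.7% lay wholly higher there. The tubulin count is not read, since this contrast was used in the choice of the genes. The part of the marker difference in the tubulin values was not tested. CAV1, at 11.56 and 11.81 in the mean, is the marker with the highest signal in that sum, and 4 of the 8 markers were called up in TC32 and 0 down (0.25 for CAV1 with an adjusted p of 0.0632, -0.16 for STEAP1 and -0.03 for PRKCB). In HCT116 the summed signal of the colon epithelial markers was 3156 to 3445 with siNeg and 3882 to 4487 with siPRKDC, and its part in the HCT116 results was likewise not tested. These are bulk samples, in which fewer cells of a type and less RNA per cell cannot be told apart.

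**Figure D1:**
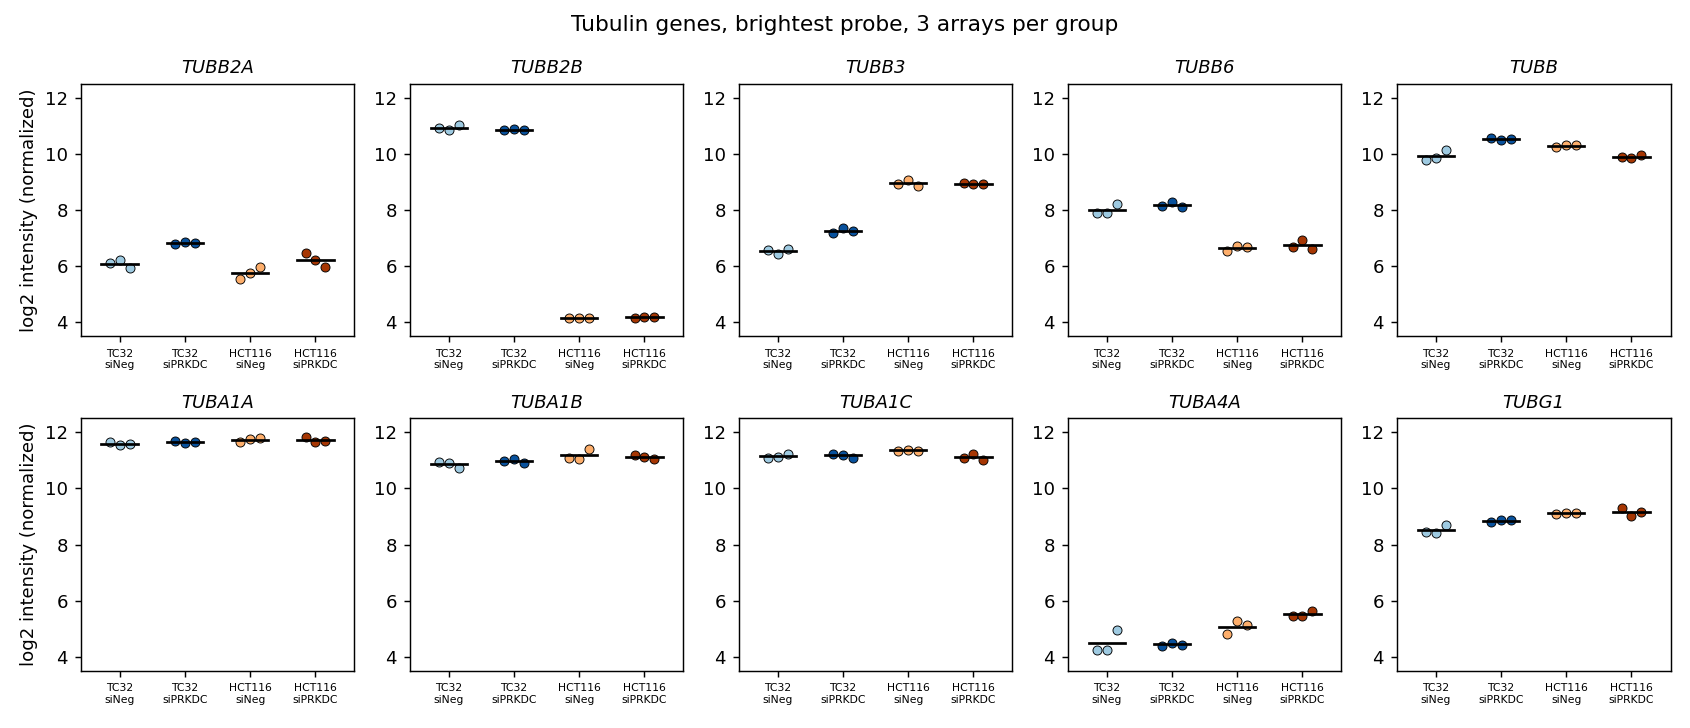
Normalized log2 intensity (vertical axis) of the brightest kept probe of each of the 10 tubulin genes on every array, by group (horizontal axis). Points are single arrays and bars are group means, and the vertical axis has the same range in every panel. TUBB2B lies between 10.84 and 11.02 on the TC32 arrays and between 4.14 and 4.17 on the HCT116 arrays.

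TUBB2B was bright on every TC32 array and was detected on no HCT116 array, so siPRKDC and siNeg could not be compared for it in HCT116. On the TC32 siNeg arrays the TUBB2B probe read 10.92, 10.84 and 11.02, and on the TC32 siPRKDC arrays 10.85, 10.88 and 10.85. On the HCT116 arrays it read 4.14 to 4.15 with siNeg and 4.14 to 4.17 with siPRKDC, and none of these arrays detected it. The TC32 and HCT116 arrays were thus far apart, while siNeg and siPRKDC overlapped in TC32. The raw intensities behind these levels were 1832.8 to 2090.9 in TC32 and 68.8 to 71.6 in HCT116. Measured against the detection floor, TUBB2B was at least 94.9-fold higher in TC32 than in HCT116 under siNeg and at least 90.3-fold higher under siPRKDC. These bounds hold for the background correction used: the log2 difference between the group means, 6.78 under siNeg, was 4.84 without background correction and 5.26 with an offset of 50. The TC32 difference between siPRKDC and siNeg was -0.07 (SE 0.09). The probe entered the analysis only through the TC32 groups, since a probe was kept if all 3 arrays of at least 1 group detected it.

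TUBB3 went the other way between the lines, and its TC32 values lay higher with siPRKDC. The TUBB3 probe read 6.55, 6.44 and 6.60 on the TC32 siNeg arrays and 7.17, 7.35 and 7.24 on the TC32 siPRKDC arrays. In HCT116 it read 8.93, 9.08 and 8.85 with siNeg and 8.94, 8.91 and 8.91 with siPRKDC. The TC32 groups did not overlap, the HCT116 groups did, and every HCT116 array was above every TC32 array. The TC32 mean went from 6.53 ± 0.08 with siNeg to 7.25 ± 0.09 with siPRKDC (SD, n = 3), a log2 difference of 0.73 (SE 0.09), or 1.66-fold. HCT116 was higher than TC32 by 5.38-fold under siNeg and by 3.18-fold under siPRKDC. These folds hold for the background correction used. The log2 differences, TC32 minus HCT116, were -2.43 and -1.67, and -1.90 and -1.38 without background correction. In HCT116, whose siNeg arrays are shared with the comparison of the lines, the TUBB3 log2 difference between siPRKDC and siNeg was -0.03 (SE 0.09), with a 95% interval from -0.23 to 0.16 (limma, adjusted p = 0.867). Whether the lines differed in this respect was not tested, since TC32 was used to choose TUBB3.

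TUBB2A, whose coding sequence is nearly identical to that of TUBB2B, was higher with siPRKDC in both lines, and it rose in the HCT116 test. The TUBB2A probe read 6.10, 6.20 and 5.91 on the TC32 siNeg arrays and 6.78, 6.87 and 6.80 on the TC32 siPRKDC arrays. In HCT116 it read 5.54, 5.76 and 5.96 with siNeg and 6.44, 6.21 and 5.97 with siPRKDC. The TC32 groups were well apart, whereas in HCT116 the lowest siPRKDC array lay just above the highest siNeg array. The TC32 log2 difference was 0.75 (SE 0.12), or 1.68-fold. In HCT116 TUBB2A rose by 0.46 (SE 0.12, 95% interval from 0.21 to 0.71), or 1.37-fold (limma, adjusted p = 0.0097). It did not pass once HCT116 siNeg replicate 1 (difference 0.35, adjusted p = 0.0749) or siPRKDC replicate 1 (0.34, 0.0771) was left out, with adjusted p from 0.00362 to 0.0771 over the alternatives. Probe sequences were not used here, so which of these near-identical transcripts a probe reads was not checked; in HCT116 the TUBB2A probe was detected on all 6 arrays and the TUBB2B probe on none.

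TUBB6, a more divergent beta-tubulin, was higher in TC32 by both of its probes. Its first probe read 7.88, 7.90 and 8.19 on the TC32 siNeg arrays and 6.54, 6.69 and 6.67 on the HCT116 siNeg arrays, a log2 difference of 1.36, or 2.56-fold, and the second probe gave the same difference of 1.36. Under siPRKDC the line differences of the 2 probes were 1.44 and 1.18. Without background correction the first probe gave 1.00 under siNeg and 1.08 under siPRKDC. With siPRKDC the first probe read 8.12, 8.28 and 8.11 in TC32 and 6.66, 6.93 and 6.61 in HCT116, overlapping siNeg in each line. In HCT116 the TUBB6 log2 difference was 0.10, with a 95% interval from -0.13 to 0.32 (limma, adjusted p = 0.599). The second probe gave 0.24 and was not called either (adjusted p = 0.0961 over all kept probes).

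TUBB, a widely expressed beta-tubulin also known as TUBB5, had opposite differences in the lines by its brighter probe. That probe read 9.78, 9.85 and 10.12 on the TC32 siNeg arrays and 10.55, 10.50 and 10.54 on the TC32 siPRKDC arrays. In HCT116 the brighter TUBB probe read 10.26, 10.30 and 10.29 with siNeg and 9.88, 9.85 and 9.96 with siPRKDC. Within TC32 every siPRKDC array lay above every siNeg array, and within HCT116 every siPRKDC array lay below every siNeg array. The TC32 log2 difference was 0.61 (SE 0.10), or 1.53-fold. In HCT116 TUBB fell by 0.38 on the log2 scale (SE 0.10, 95% interval from -0.58 to -0.18; limma, adjusted p = 0.00672), or 1.30-fold. The second TUBB probe gave smaller differences, -0.03 in TC32 and -0.09 in HCT116 (adjusted p = 0.588 over all kept probes). With the mean of both probes the HCT116 difference was -0.24 and the call was lost (adjusted p = 0.0598), and the TC32 difference was 0.29. The line difference of TUBB was also probe-dependent, at -0.37 under siNeg by the brighter probe and 0.50 by the other. Under siPRKDC the brighter TUBB probe was higher in TC32 by 0.63 and the other by 0.57.

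**Figure D2:**
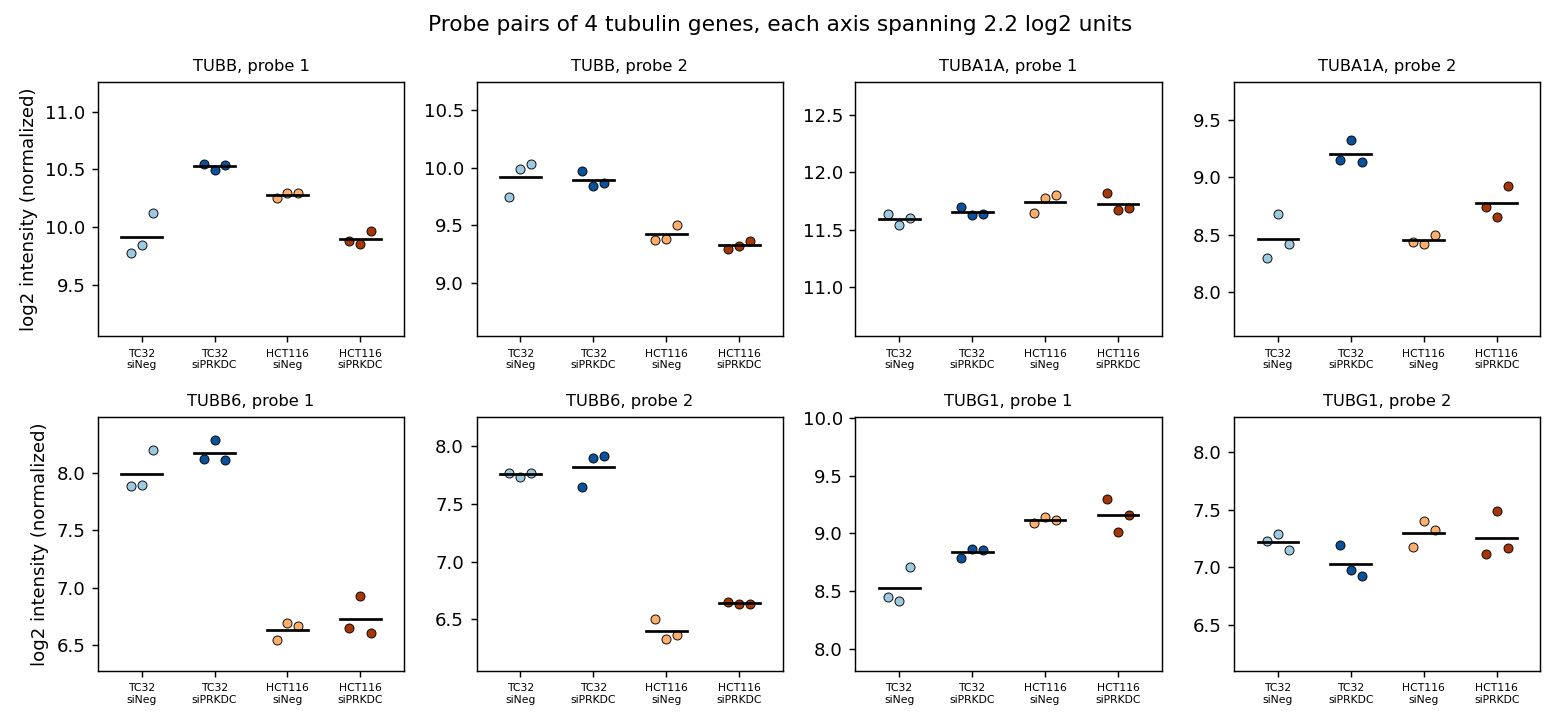
Normalized log2 intensity (vertical axes, each spanning 2.2 units) of 2 probes each for TUBB, TUBA1A, TUBB6 and TUBG1 on every array, by group (horizontal axes); points are single arrays and bars are group means. The TUBB6 probes show the same separation of the lines, while the siPRKDC differences of TUBB, TUBA1A and TUBG1 in TC32 appear in 1 probe of each pair.

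Among the alpha-tubulins, the bright probes of TUBA1A and TUBA1B varied little between siNeg and siPRKDC. The brighter TUBA1A probe read 11.54 to 11.64 with siNeg and 11.63 to 11.70 with siPRKDC in TC32, and 11.65 to 11.81 and 11.67 to 11.82 in HCT116. TUBA1B read 10.74 to 10.95 and 10.92 to 11.06 in TC32, and 11.05 to 11.41 and 11.03 to 11.19 in HCT116. The siNeg and siPRKDC ranges of both genes overlapped in each line. In HCT116 the log2 differences were -0.02 for TUBA1A (95% interval from -0.20 to 0.17, adjusted p = 0.936) and -0.06 for TUBA1B (-0.27 to 0.15, adjusted p = 0.756), by limma. The small line differences of TUBA1A, -0.15 under siNeg and -0.07 under siPRKDC, turned to 0.06 and 0.27 when arrays were scaled to their medians. The corresponding TUBA1B difference under siPRKDC turned from -0.13 to 0.19. These line differences are therefore given without a direction.

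The second TUBA1A probe behaved unlike the first. It read 8.30, 8.68 and 8.42 on the TC32 siNeg arrays and 9.15, 9.32 and 9.13 on the TC32 siPRKDC arrays, and in HCT116 8.44, 8.42 and 8.50 with siNeg and 8.74, 8.65 and 8.93 with siPRKDC. The siPRKDC arrays were above the siNeg arrays in both lines. The TC32 log2 difference was 0.73 (SE 0.11), or 1.66-fold. In HCT116 it was 0.32 (SE 0.11, 95% interval from 0.10 to 0.55), or 1.25-fold, which passed the threshold over all kept probes (limma, adjusted p = 0.0447). That call was not checked by leaving out single arrays. The mean of both TUBA1A probes gave 0.40 in TC32 and 0.15 in HCT116. TUBA1A, TUBA1B and TUBA1C have near-identical coding sequences, and which transcripts these probes read was not checked here.

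TUBA1C came close to the threshold in HCT116 without passing it. Its brighter probe read 11.35, 11.38 and 11.35 with siNeg and 11.10, 11.22 and 11.02 with siPRKDC in HCT116, and the groups did not overlap. The log2 difference was -0.25 (SE 0.09, 95% interval from -0.44 to -0.06; limma, adjusted p = 0.0589). It passed in 8 of the alternative settings, among them no background correction (adjusted p = 0.0038) and without siPRKDC replicate 2 (adjusted p = 0.0487). The second TUBA1C probe gave -0.04 (adjusted p = 0.865 over all kept probes). In TC32 the probes gave 0.03 and 0.04.

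TUBA4A, an alpha-tubulin known from platelets and neurons, was near the detection floor in TC32 and rose in HCT116. In TC32 it read 4.24, 4.25 and 4.94 with siNeg and 4.39, 4.49 and 4.43 with siPRKDC, with 1 of 3 arrays of each group detecting it. In HCT116 it read 4.82, 5.26 and 5.12 with siNeg and 5.44, 5.44 and 5.63 with siPRKDC, all detected and with no overlap. The HCT116 log2 difference was 0.44 (SE 0.14, 95% interval from 0.14 to 0.74), or 1.36-fold (limma, adjusted p = 0.0369). TUBA4A did not pass once HCT116 siNeg replicate 1 (0.31 with an adjusted p of 0.203), siNeg replicate 3 (0.47, 0.0684), siPRKDC replicate 1 (0.47, 0.0658), siPRKDC replicate 2 (0.47, 0.0627) or siPRKDC replicate 3 (0.38, 0.142) was left out. Without a filter on dim probes the adjusted p was 0.125, and without background correction the difference was 0.18. TC32 was lower than HCT116 by 0.59 on the log2 scale under siNeg, where the groups overlapped, and by 1.07 under siPRKDC, where they did not.

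TUBG1, the gamma-tubulin, was higher in HCT116 by its brighter probes and was not called there with siPRKDC. Its brightest probe read 8.45, 8.42 and 8.71 on the TC32 siNeg arrays and 8.79, 8.86 and 8.86 on the TC32 siPRKDC arrays. In HCT116 it read 9.09, 9.14 and 9.12 with siNeg and 9.30, 9.01 and 9.16 with siPRKDC. The TC32 groups did not overlap and the HCT116 groups did. The TC32 log2 difference was 0.31 (SE 0.10), or 1.24-fold, but the second probe gave -0.19, the third -0.03 and the fourth -0.09, and the mean of the kept probes was 0.0004. In HCT116 the brightest probe gave 0.04 (95% interval from -0.17 to 0.25; limma, adjusted p = 0.835). HCT116 was higher than TC32 under siNeg by 0.59 by the brightest probe, 0.08 by the second and 0.29 by the third. The arrays of the lines overlapped for the second probe. The fourth probe was near the detection floor, and the fifth was left out by the detection filter.

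**Figure D3:**
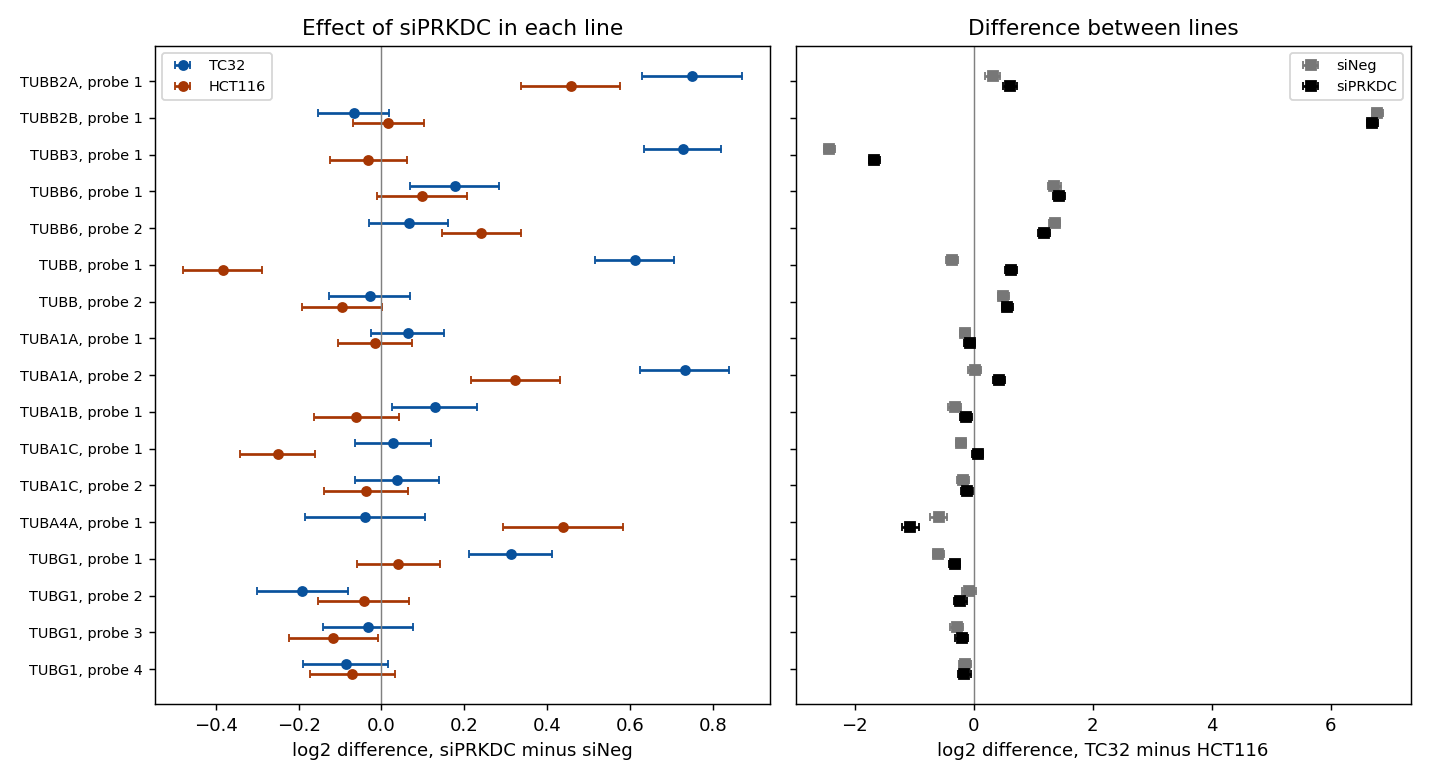
Log2 differences (horizontal axes) for each of the 17 kept probes of the 10 genes (vertical axis). The left panel gives siPRKDC minus siNeg in TC32 and in HCT116. The right panel gives TC32 minus HCT116 with siNeg and with siPRKDC. Points are differences of group means and bars are the standard errors of the fit. The HCT116 differences of the genes' brightest probes run from -0.38 for TUBB to 0.46 for TUBB2A.

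Over the 10 genes, each by its brightest probe, the HCT116 test called 2 up (TUBB2A and TUBA4A) and 1 down (TUBB), against 9.20% of all tested genes called up and 9.55% called down (limma, adjusted p under 0.05 over 10386 genes). TUBB2B, detected on no HCT116 array, could not be called. These counts rest on 3 genes, and 4 of the 10 had an unadjusted p under 0.05. In HCT116 2 of the 10 lay wholly higher with siPRKDC and 2 wholly lower, against 17.4% and 17.8% of all genes. The median log2 difference of the 10 genes in HCT116 was 0.00, as it was over all genes tested. The number called was 1 without siNeg replicate 1 and 1 without siPRKDC replicate 1, and ran from 1 to 4 over the alternatives. By probe, 3 of the 17 kept probes were called up and 1 down, against 7.41% and 7.42% of all kept probes. In TC32, where 24.7% of all genes lay wholly higher with siPRKDC and 23.5% wholly lower, 4 tubulin genes lay wholly higher (TUBB2A, TUBB3, TUBB and TUBG1), none lower, and 6 overlapped. The median TC32 difference of the 10 genes was 0.15, beside 0.01 over all genes. Nothing is read from these TC32 counts, since the contrast was used in the choice of the genes. The HCT116 contrast shares its siNeg arrays with the comparison of the lines.

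Between the lines under siNeg, 2 of the 10 genes were wholly higher in TC32 (TUBB2B and TUBB6), 6 wholly lower, of which TUBA1A turned to 0.06 and TUBA1C came to -0.0034 with median scaling and TUBB turned to 0.07 with the mean of its probes, and 2 overlapped (TUBB2A and TUBA4A). Of all genes 30.8% were wholly higher and 37.5% wholly lower. Under siPRKDC 4 were wholly higher in TC32 (TUBB2A, TUBB2B, TUBB6 and TUBB) and 3 lower (TUBB3, TUBA4A and TUBG1), with 33.2% and 34.9% over all genes. In order of the log2 difference under siNeg, TUBB2B, known only as a bound, came before TUBB6 at 1.36 and TUBB2A at 0.32. The neighbours below them were TUBA1A at -0.15, TUBA1C at -0.21, TUBA1B at -0.32 and TUBB at -0.37, a run in which neighbours did not differ beyond the spread between arrays. TUBG1 and TUBA4A followed at -0.59, and TUBB3 was last at -2.43. The values of TUBG1 and TUBA4A depended on the processing, so their places are not firm. TUBG1 gave -0.27 with the mean of its probes, and TUBA4A gave -0.20 without background correction.

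The genes whose pattern over the 12 arrays was most like that of a tubulin gene were found by the root mean square of the differences between gene-centred log2 values. For TUBB2B these were GRP (0.14), which encodes the gastrin-releasing peptide, ITM2A (0.18) and ITGB2 (0.39), an integrin beta subunit. The mean level of GRP was 10.70 and 10.89 in the TC32 groups and 4.20 and 4.25 in the HCT116 groups, with siNeg and siPRKDC in that order. The HCT116 means of GRP and of ITM2A (4.21 and 4.29) lay below the lowest detected signal, as did those of TUBB2B. Their likeness in HCT116 is therefore one of signals at background. For TUBB3 the nearest genes were COL18A1 (0.14), a collagen chain, DYNLL2 (0.14), a dynein light chain, and PLOD1 (0.16), a lysyl hydroxylase. DYNLL2 went from 5.42 to 5.95 in TC32 and from 7.78 to 7.87 in HCT116. COL18A1 had a mean of 4.35 on the TC32 siNeg arrays, below the lowest detected signal of those arrays. The patterns are dominated by the line difference that chose TUBB2B and are given as descriptions.

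**Figure D4:**
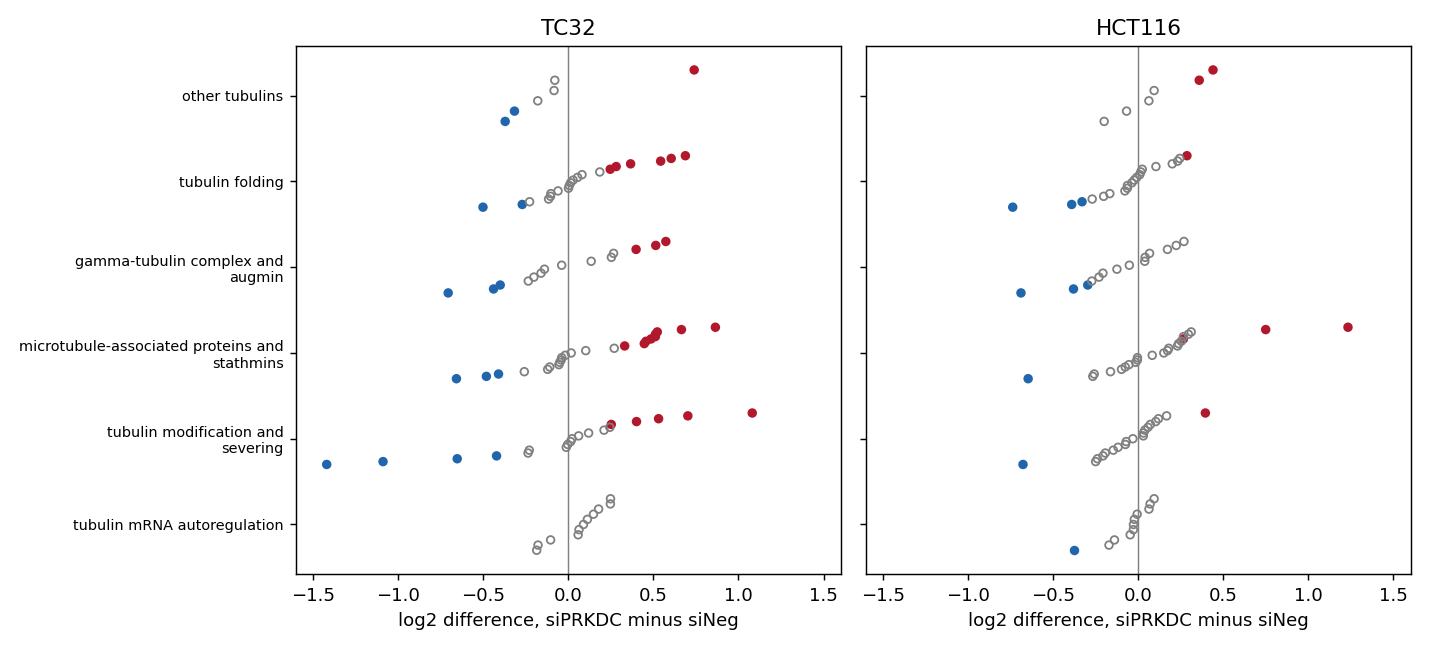
Log2 difference between siPRKDC and siNeg (horizontal axis) of each measured gene in 6 lists of microtubule genes (vertical axis), in TC32 and HCT116; 1 point is 1 gene, filled red or blue where called up or down and open grey where not called. In TC32 24 genes were called up and 14 down, and in HCT116 7 up and 9 down.

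Beyond the 10 genes, 122 genes of the microtubule pathway were sorted by function into 6 lists, and 93 of them were measured. In TC32 24 of these rose and 14 fell with siPRKDC, and in HCT116 7 rose and 9 fell. Over all genes 42.7% were called in either direction in TC32, and 9.20% were called up and 9.55% down in HCT116. The TC32 share was not split by direction, so it stands beside the 38 of 93 called there, and 24 against 14 is not read. The same shares are the background of the counts for single lists below. The HCT116 count of 16 was 10 without siNeg replicate 1, without siNeg replicate 3 or without siPRKDC replicate 1. These genes were sorted by function, but with earlier results of these data known, so their counts are no independent evidence of a direction.

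Among the 6 other tubulins measured, 1 rose and 2 fell in TC32, and 2 rose and 0 fell in HCT116 (limma; 0 also fell at an unadjusted p under 0.05). TUBB4B, a broadly expressed beta-tubulin, read 8.84, 9.15 and 9.03 with siNeg and 9.71, 9.79 and 9.75 with siPRKDC in TC32, with no overlap. Its log2 rise was 0.74 (SE 0.11, adjusted p = 9.32e-06, limma), while its HCT116 difference was -0.20 (adjusted p = 0.217). TUBG2, the second gamma-tubulin gene, rose in HCT116 by 0.44 (SE 0.09, adjusted p = 0.00153) and gave -0.08 in TC32. TUBB4A, known from brain, fell by 0.32 in TC32 (adjusted p = 0.0249) and rose by 0.36 in HCT116 (adjusted p = 0.0273). Leaving out TC32 siNeg replicate 1 (-0.28 with an adjusted p of 0.0821), siNeg replicate 2 (-0.29, 0.0705) or siPRKDC replicate 1 (-0.20, 0.177) ended the limma call in TC32. So did no background correction (-0.11, adjusted p = 0.124), an offset of 50 (-0.14, adjusted p = 0.0843), no filter on dim probes (adjusted p = 0.0525) and the authors' deposited log2 values (-0.09, adjusted p = 0.199). Leaving out HCT116 siNeg replicate 1 (0.38 with an adjusted p of 0.0513), siNeg replicate 3 (0.28, 0.139), siPRKDC replicate 1 (0.30, 0.116) or siPRKDC replicate 2 (0.34, 0.082) ended the call in HCT116, as did no filter on dim probes (adjusted p = 0.0585). TUBE1, the epsilon-tubulin of centrioles, fell by 0.37 in TC32 (adjusted p = 0.0165). Leaving out TC32 siNeg replicate 2 (-0.28, adjusted p = 0.0955) or siPRKDC replicate 3 (-0.30, 0.0806) ended it, as did no background correction (-0.12, adjusted p = 0.0679) and the authors' deposited log2 values (-0.10, adjusted p = 0.124), and 2 of the 3 siPRKDC arrays detected the probe.

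New tubulin is folded by prefoldin, the CCT chaperonin and the tubulin cofactors, and of 20 such genes measured 6 rose and 2 fell in TC32 while 1 rose and 3 fell in HCT116. CCT5, a chaperonin subunit, read 5.25, 5.48 and 5.23 with siNeg and 4.45, 4.77 and 4.51 with siPRKDC in HCT116. In TC32 CCT5 read 4.72, 4.93 and 4.80 with siNeg and 5.28, 5.05 and 5.22 with siPRKDC. The groups did not overlap in either line, and the values were close to the detection floor. CCT5 fell by 0.74 in HCT116 (SE 0.11, adjusted p = 3.63e-05) and rose by 0.37 in TC32 (SE 0.11, adjusted p = 0.00822; limma). The TC32 call was lost in the authors' deposited log2 values (0.12, adjusted p = 0.0596). Over the alternatives the HCT116 difference of CCT5 ran from -0.84 to -0.27. TBCB, a tubulin cofactor, rose by 0.60 in TC32 (adjusted p = 1.44e-05) and gave 0.24 in HCT116 (adjusted p = 0.0677), where 7 alternatives called it, with adjusted p down to 0.00887 in the authors' deposited log2 values. PDCL3, a co-chaperone of CCT, rose by 0.69 in TC32 (adjusted p = 6.73e-06) and by 0.29 in HCT116 (adjusted p = 0.0449). The HCT116 call of PDCL3 was lost without any 1 of the HCT116 arrays other than siPRKDC replicate 2 (differences from 0.24 to 0.31), with adjusted p up to 0.167 without siNeg replicate 3, and also without TC32 siPRKDC replicate 1 (adjusted p = 0.0523) or replicate 2 (adjusted p = 0.0506). It was also lost with median scaling (0.22, adjusted p = 0.131), with the lines fitted apart (adjusted p = 0.0605) and with no filter on dim probes (adjusted p = 0.0531). PFDN1, a prefoldin subunit, fell by 0.33 in HCT116 (adjusted p = 0.028), and this call was lost without any 1 of the HCT116 arrays other than siNeg replicate 2, with differences from -0.34 to -0.28 and adjusted p from 0.0575 to 0.119.

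The gamma-tubulin ring complex and augmin start and branch microtubules, and 14 of their genes were measured. In TC32 3 rose and 3 fell, and in HCT116 0 rose and 3 fell (limma; at an unadjusted p under 0.05, 0 rose and 5 fell). Under siNeg 10 of the 14 were higher in TC32 than in HCT116 and 0 lower, also at an unadjusted p under 0.05, with a median log2 difference of 0.41 beside -0.06 over all genes, where 30.1% of all genes were called higher and 36.1% lower. TUBGCP5, a subunit of the ring complex, rose by 0.57 in TC32 (SE 0.11, adjusted p = 0.000249, limma) and gave -0.23 in HCT116 (adjusted p = 0.164; -0.39 and 0.0136 without HCT116 siNeg replicate 3). HAUS4, an augmin subunit, fell by 0.71 in TC32 (adjusted p = 3.24e-05) and by 0.38 in HCT116 (adjusted p = 0.0218). In HCT116 HAUS4 did not pass once siNeg replicate 2 (-0.38 with an adjusted p of 0.0625), siNeg replicate 3 (-0.35, 0.0794) or siPRKDC replicate 1 (-0.27, 0.141) was left out, nor without a filter on dim probes (adjusted p = 0.0531). CDK5RAP2, which recruits ring complexes to centrosomes, fell by 0.69 in HCT116 (adjusted p = 0.000251) by its brightest probe. Its other probes gave 0.20 and -0.11 there, neither called, and the mean of its probes gave -0.20 (adjusted p = 0.092).

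Of 23 microtubule-associated protein and stathmin genes measured, 9 rose and 3 fell in TC32, and 3 rose and 1 fell in HCT116. DCLK1, a doublecortin-like kinase that binds microtubules, read 5.30, 5.37 and 5.0 with siNeg and 6.46, 6.60 and 6.30 with siPRKDC in HCT116. The groups did not overlap, and DCLK1 rose by 1.23 (SE 0.12, adjusted p = 1.65e-07, limma), or 2.35-fold. The size of this rise depended on the processing, from 0.62 to 1.31 on the log2 scale over the alternatives. The second DCLK1 probe rose by 0.46. In TC32 DCLK1 gave -0.04 (adjusted p = 0.829). CAMSAP2, which binds microtubule minus ends, rose in both lines, by 0.86 in TC32 (adjusted p = 7.83e-07) and 0.75 in HCT116 (adjusted p = 2.48e-05). KIF2C, a kinesin that depolymerizes microtubules at mitotic centromeres, fell by 0.66 in TC32 (adjusted p = 5.33e-06) and by 0.65 in HCT116 (adjusted p = 2.92e-05).

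Of 19 genes for tubulin modification and severing, 5 rose and 4 fell in TC32, and 1 rose and 1 fell in HCT116. TTLL6, a tubulin polyglutamylase, read 6.79, 6.46 and 6.30 with siNeg and 5.18, 5.07 and 5.03 with siPRKDC in TC32. It fell there by 1.42 (SE 0.11, adjusted p = 1.04e-09, limma), or 2.68-fold. Over the alternatives this difference ran from -1.53 to -0.68. In HCT116 0 of 3 siNeg arrays and 1 of 3 siPRKDC arrays detected TTLL6. KATNAL1, a katanin-like microtubule-severing protein, fell in both lines, by 1.09 in TC32 (adjusted p = 8.11e-09) and 0.68 in HCT116 (adjusted p = 2.83e-05). SVBP, the partner of the vasohibin enzymes that remove the C-terminal tyrosine of alpha-tubulin, rose by 0.53 in TC32 (adjusted p = 0.000232) and by 0.39 in HCT116 (adjusted p = 0.00893). In HCT116 SVBP did not pass once siNeg replicate 3 (0.33, adjusted p = 0.0546) or siPRKDC replicate 1 (0.31, 0.0643) was left out.

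Cells also lower tubulin mRNA when free tubulin accumulates, through a factor that reads the nascent tubulin chain and recruits the CCR4-NOT deadenylase. Of 11 genes of this autoregulation measured, 0 rose and 0 fell in TC32 by limma, with 1 up and 0 down at an unadjusted p under 0.05 and a median log2 difference of 0.09. In HCT116 0 rose and 1 fell, the same counts as at an unadjusted p under 0.05. That gene was CNOT10, a CCR4-NOT subunit, which fell by 0.38 in HCT116 (SE 0.10, adjusted p = 0.0079) and gave 0.11 in TC32 (adjusted p = 0.392).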

How the data were processed

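Total RNA of 12 samples was amplified as biotinylated cRNA and hybridized to HumanHT-12 v4 arrays, per the labels. The authors deposited raw intensity values with no background correction or normalization, each with a detection p-value, per the file headers. They also deposited log2 values, used here as an alternative, for which each sample's own intensities gave the best match. The submitters' processing notes name GenomeStudio, R 3.0.2 and lumi; other versions and a genome build were not stated there.

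Intensities were background-corrected from the detection p-values, quantile normalized over 12 arrays and logged with neqc (limma 3.58.1, R 4.3.3, offset 16). The annotation gives 30113 of 47322 probes a single gene (8 have several, 17201 have none), and the genes of 30074 were found in RefSeq. A probe had to be detected (p below 0.05) in every array of some group (16555 were, 13396 of them with 1 gene), and each of 10386 genes was read by its brightest kept probe. The 4 groups entered 1 limma model with 8 residual and 13.5 prior degrees of freedom; p-values are two-sided, adjusted over all genes by the Benjamini-Hochberg method, and called below 0.05. The number of arrays limits the precision, and an exact permutation test of 3 against 3 cannot go below 0.1. The scripts were tested on simulated data.

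The 10 genes and all gene lists (other tubulins, folding, gamma-tubulin complex and augmin, associated proteins, modification and severing, autoregulation, and markers of both lines) were chosen with earlier results of these data known. Named were all 10 genes with every probe, up to 2 genes per list and line with the smallest p among those called, the 3 genes nearest in pattern to TUBB2B and to TUBB3, and PRKDC. Alternatives changed the background, scaling, filter, probe choice, model options, values used, replicate block and each array left out.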

Additional observations from a re-analysis of the deposited data

Results flagged for a closer look

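TUBB was flagged for opposite differences in the lines by its brighter probe. Every TC32 siPRKDC array lay above every TC32 siNeg array, and every HCT116 siPRKDC array lay below every HCT116 siNeg array. The log2 differences of its brighter probe were 0.61 in TC32 and -0.38 in HCT116, and the difference between the lines was not tested, because TC32 was used in the choice of the gene. The second TUBB probe gave -0.03 and -0.09. Of all genes, 24.7% lay wholly higher with siPRKDC in TC32 and 23.5% wholly lower. In HCT116 these shares were 17.4% and 17.8%. The share of genes with opposite directions in the lines was not counted, so the TUBB pattern is not read as unusual.

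In the limma test of the difference between the lines, the siPRKDC effect was called more positive in TC32 for 17 of the 93 measured pathway genes and more negative for 9, beside 16.4% and 15.5% of all genes. Among the 18 named pathway genes 13 were called, a number that is not read against that background, because these genes were named for a small p in 1 of the lines, which is part of the difference. Each value here is the log2 effect in TC32 minus that in HCT116. Among the named genes the effect was more positive in TC32 for 8. CCT5 differed by 1.1 (adjusted p = 9.46e-06), TUBB4B by 0.94 (adjusted p = 6.93e-05) and TUBGCP5 by 0.80 (adjusted p = 0.000487). CNOT10 differed by 0.49 (adjusted p = 0.00892) and CDK5RAP2 by 0.45 (adjusted p = 0.0422). PFDN1 differed by 0.41 (adjusted p = 0.0358), PDCL3 by 0.40 (adjusted p = 0.0299) and TBCB by 0.36 (adjusted p = 0.0364). It was more negative in TC32 for 5. TTLL6 differed by -1.48 (adjusted p = 2.99e-07), with 1 of the 6 HCT116 arrays detecting it, and DCLK1 by -1.27 (adjusted p = 4.72e-06). TUBB4A differed by -0.68 (adjusted p = 0.00229), TUBG2 by -0.52 (adjusted p = 0.00362) and KATNAL1 by -0.41 (adjusted p = 0.0241).

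Single arrays decided 5 of these calls. PFDN1 lost its call without any 1 array other than TC32 siNeg replicate 3, TC32 siPRKDC replicate 3 and HCT116 siNeg replicate 2, with values from 0.34 to 0.42 and adjusted p from 0.0518 to 0.0945. PDCL3 lost it without TC32 siNeg replicate 2 or 3, TC32 siPRKDC replicate 3, HCT116 siNeg replicate 1 or 2, or HCT116 siPRKDC replicate 2 (0.32 to 0.38, adjusted p from 0.0587 to 0.0952). TBCB lost it without any 1 array other than TC32 siNeg replicate 1, TC32 siPRKDC replicate 2, HCT116 siNeg replicate 2 and HCT116 siPRKDC replicate 3 (0.31 to 0.37, adjusted p from 0.0562 to 0.0974). CDK5RAP2 lost it without TC32 siNeg replicate 1, TC32 siPRKDC replicate 1 or 3, HCT116 siNeg replicate 1 or 2, or HCT116 siPRKDC replicate 1 or 3 (0.36 to 0.44, adjusted p from 0.0754 to 0.118), and the mean of its probes gave 0.09 (adjusted p = 0.595). KATNAL1 lost it without TC32 siNeg replicate 1 or 3, TC32 siPRKDC replicate 1 or 2, or HCT116 siPRKDC replicate 2 (-0.39 to -0.37, adjusted p from 0.0509 to 0.0624). Other settings also ended a call: no filter on dim probes for PFDN1 (adjusted p = 0.0559), cyclic loess (0.36, adjusted p = 0.0566) and the mean of probes (0.28, adjusted p = 0.0554) for PDCL3, and cyclic loess for TBCB (0.29, adjusted p = 0.0935). For CDK5RAP2 these were no background correction (0.20, adjusted p = 0.119), cyclic loess (0.40, adjusted p = 0.0648), an offset of 50 (0.26, adjusted p = 0.0888) and no filter on dim probes (adjusted p = 0.0972).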

How the results depend on the processing

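The tubulin genes called in HCT116 numbered 3, and 1 to 3 when single arrays were left out. Pathway genes called there numbered 16, and 10 to 16 with single arrays left out. The genes called between the lines fell from 6877 to 4398 when detection at p below 0.01 on all 12 arrays was required, which tests fewer genes. Over all alternatives 1461 to 2253 genes were called in HCT116 and 3384 to 4500 in TC32. No called difference turned its sign; small differences that were not called did. With single arrays left out, the HCT116 differences ran from -0.086 to 0.031 for TUBB3, from -0.0022 to 0.16 for TUBB6, from -0.063 to 0.016 for TUBA1A, from -0.12 to 0.052 for TUBA1B, from -0.031 to 0.12 for TUBG1 and from -0.084 to 0.18 for TUBE1. DCLK1 in TC32 ran from -0.13 to 0.046, and the KIF2C difference between lines from -0.074 to 0.030. With cyclic loess TUBB3 gave 0.024 and TUBA1A 0.0061. With the mean of their probes TUBA1A gave 0.15 and TUBG1 -0.047. With median scaling TUBG1 gave -0.027 and KIF2C 0.086. The cause of these was not tested. Without background correction the dimmer probes gave smaller differences: TUBB2A was 0.45 and TUBB3 0.49 in TC32, and the TUBB2B difference between the lines was 4.84. The 10 genes had 228 alternative tests in HCT116, of which 199 kept direction and side of the threshold. Of the others, 9 lost the call, 8 gained it and 12 turned the sign of a difference that was not called. The tests include settings that leave out a TC32 array, which cannot move an HCT116 difference. They also include 22 tests of TUBB2B, which no HCT116 array detected. The 199 therefore overstates how far the results withstood the alternatives. The samples share replicate numbers, but deviations of same-numbered samples correlated at 0.02 to 0.111 in TC32 and 0.002 to 0.062 in HCT116, and 2 of 3 numbers in each line correlated best with their own. With the replicate block, 3 tubulin genes were called in HCT116, 1948 genes in all there, 4463 in TC32 and 6905 between the lines, and 16 and 40 pathway genes in HCT116 and TC32. The slide as a block was not run, because the columns name no slides. Probes near background, such as TUBA4A in TC32 and TUBB2B in HCT116, carry only bounds or wide errors.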

Other observations

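Other microtubule genes changed in TC32 with siPRKDC, and those named here were chosen after their values were seen. TTL, the ligase that adds back the C-terminal tyrosine of alpha-tubulin, read 6.19, 5.97 and 6.04 with siNeg and 7.22, 6.97 and 7.25 with siPRKDC in TC32. It rose there by 1.08 on the log2 scale (SE 0.11, limma, adjusted p = 5.47e-08), or 2.12-fold. In HCT116 TTL gave -0.03 (adjusted p = 0.886). FIGNL1, a fidgetin-like ATPase, rose by 0.70 in TC32 (adjusted p = 1.15e-05), and its second probe gave 0.87.

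Of the 23 genes for microtubule-associated proteins and stathmins, 9 were called up and 3 down in TC32, beside 42.7% of all genes called in either direction. MAPT, MAP1A, MAP1B and STMN1 were picked from those that rose. Others of the list lay wholly lower with siPRKDC. TPX2 read 7.46, 7.70 and 7.66 with siNeg and 7.03, 7.06 and 7.27 with siPRKDC. KIF2A read 6.72, 6.88 and 6.75 with siNeg and 6.35, 6.38 and 6.38 with siPRKDC. MAPT, the gene of tau, read 7.56, 7.44 and 7.56 with siNeg and 8.07, 7.97 and 8.07 with siPRKDC, a rise of 0.51 (SE 0.09, limma, adjusted p = 7.49e-05), and its second probe gave 0.23. MAP1A rose by 0.52 (adjusted p = 7.89e-05) and MAP1B by 0.51 (adjusted p = 3.97e-04). STMN1, the gene of the tubulin-sequestering protein stathmin, rose by 0.46 by its brightest probe (adjusted p = 3.71e-04), while its other probes gave 0.03 and 0.00. TCP1, a chaperonin subunit, fell by 0.50 on the log2 scale by its brightest probe (limma, adjusted p = 5.07e-04), but its other probes gave -0.08 and 0.51. The processing alternatives were not run for the genes of these paragraphs.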
